A study of Rattus norvegicus with 12 samples.

Results

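The hypoxia and Vegfa response genes are 10 genes of the pathway through which cells sense oxygen: *Hif1a*, *Epas1*, *Vegfa*, *Egln1*, *Egln3*, *Bnip3*, *Adm*, *Pdk1*, *Ankrd37* and *Kdm3a*. Their probes were found by the RefSeq accession that the array design gives each probe, matched to rat gene symbols with versions ignored. Of the 10 genes, 9 had a probe found this way, 16 probes in all, and *Egln1* had none. The arrays named 16581 genes by the same match, of which 10741 had a tested probe to represent them, and 8 of the 10 were among these.

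The cells were L6, a line of rat skeletal muscle, grown as myoblasts and then fused to myotubes. The myotubes, differentiated for 6 days per the sample labels, were treated for 24 h with 60 µM GR24, a synthetic strigolactone, with 60 µM pinosylvin, or with 60 µM resveratrol, and the control received only DMSO, the solvent of all 3 compounds. Pinosylvin and resveratrol are plant stilbenes, and resveratrol carries a hydroxyl group on the ring that has none in pinosylvin. Total RNA was labelled in 1 colour and hybridised to 12 Agilent arrays, 3 per group, and 58.0% to 64.3% of the 58717 spots of an array were well above background.

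In the presence of oxygen, prolyl hydroxylases of the Egln family hydroxylate the hypoxia-inducible factors Hif1a and Epas1, which are then bound by Vhl and degraded, so that much of the control of Hif1a lies at the protein and not at the RNA. When oxygen is low or the hydroxylases are inhibited, the factors pair with Arnt and bind short elements near genes of blood vessel growth, glycolysis, mitophagy and chromatin. In skeletal muscle, vascular endothelial growth factor from the fibres supports the capillaries around them. RNA alone was measured here, and neither protein nor oxygen was.

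Levels are given as log2 of the processed signal minus the log2 of the 75th percentile of the same array, so that a level of 0 is a signal equal to that percentile, and levels of different probes are not compared. A change was called when its p in limma, adjusted over all 24279 tested probes, was under 0.05. Each gene was represented by its probe with the highest average level, whether or not that probe was tested. Of the 8 tested genes, 5 rose with GR24 (*Hif1a*, *Bnip3*, *Adm*, *Ankrd37* and *Kdm3a*) and 0 fell, where 31.5% of all tested probes rose and 25.5% fell. With pinosylvin 3 rose (*Vegfa*, *Adm* and *Ankrd37*) and 0 fell, against 8.28% and 8.27% of all tested probes. With resveratrol 2 rose (*Vegfa* and *Adm*) and 0 fell, against 7.99% and 8.99%. With the replicate number as a block, *Pdk1* was also called with GR24, a fall, and the counts with pinosylvin and resveratrol stayed at 3 and 2. Under that block 66.6%, 28.6% and 27.9% of all tested probes were called with GR24, pinosylvin and resveratrol. The median log2 fold change of the 8 genes was 0.41 with GR24, 0.18 with pinosylvin and 0.099 with resveratrol, where that of all tested probes was 0.027, 0.054 and 0.010. The 3 comparisons share the control arrays.

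**Figure D1:**
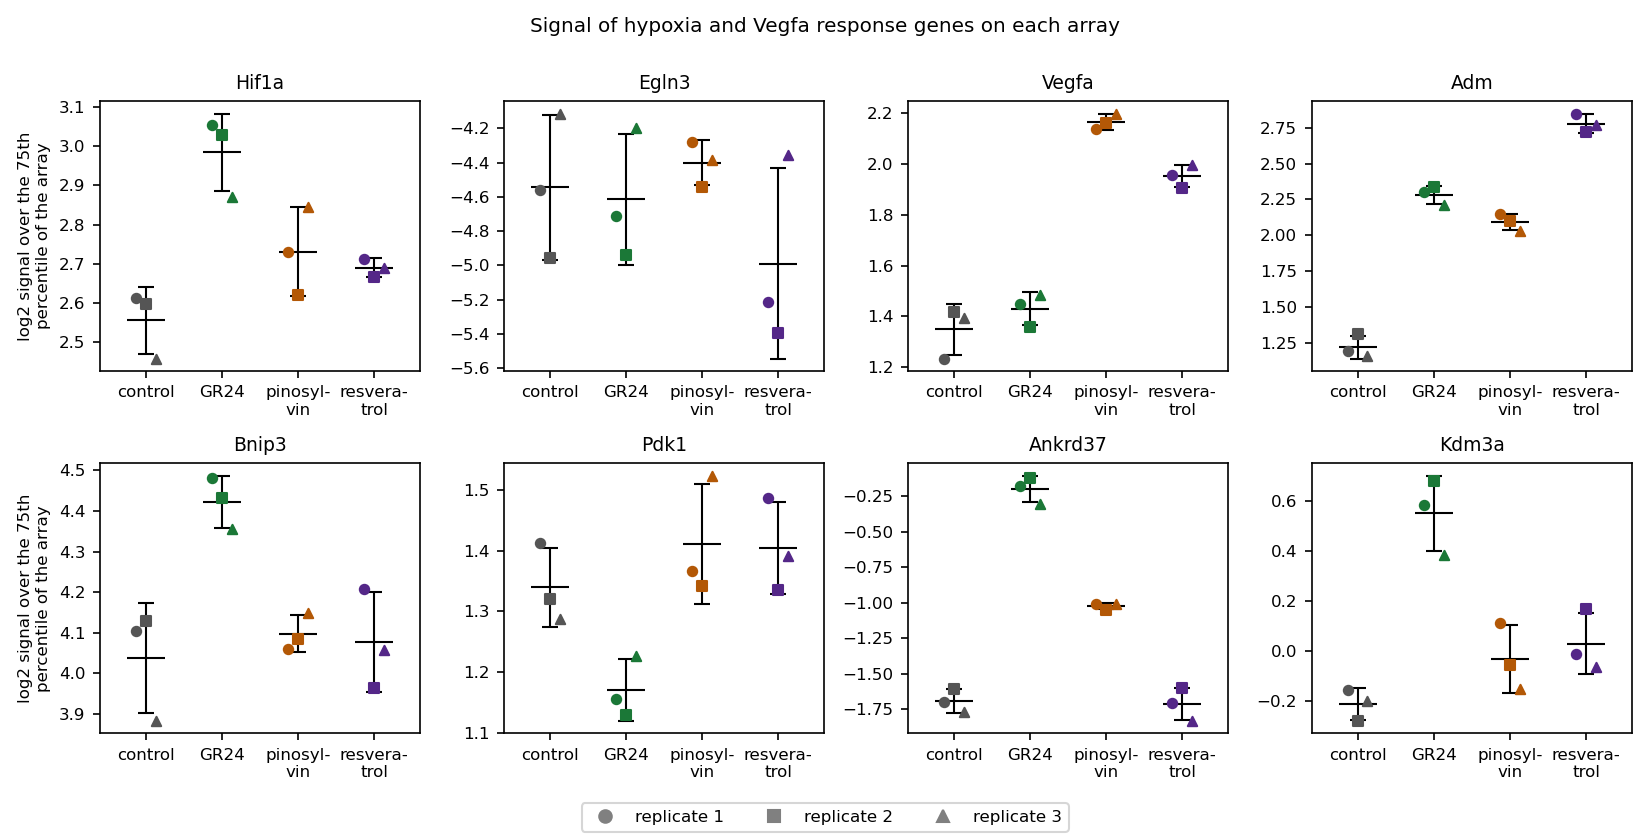
Level of the 8 tested genes on each of the 12 arrays, as log2 signal over the 75th percentile of the array (vertical axis, with its own range in each panel) by treatment group (horizontal axis). Symbols are arrays by replicate, and the bars are the mean and SD of 3 arrays. *Adm* lies above the control in all 3 treated groups, while *Hif1a*, *Bnip3* and *Kdm3a* are highest with GR24 and *Vegfa*, shown by its representing probe, with pinosylvin.

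Of the 2 hypoxia-inducible factors in the group, *Hif1a* encodes the subunit found in most tissues. Its level on replicates 1, 2 and 3 was 2.61, 2.60 and 2.46 in the control and 3.05, 3.03 and 2.87 with GR24. It was 2.73, 2.62 and 2.84 with pinosylvin and 2.71, 2.67 and 2.69 with resveratrol. The 3 GR24 arrays were above the other 9, and the pinosylvin and resveratrol arrays, which overlapped each other, were all above the control arrays by a smaller margin. *Hif1a* rose 1.35-fold with GR24 (log2 fold change 0.43, 95% interval 0.25 to 0.61, adjusted p = 0.000865). The differences of 0.18 with pinosylvin (95% interval -0.00046 to 0.35, adjusted p = 0.170) and 0.13 with resveratrol (95% interval -0.042 to 0.31, adjusted p = 0.308) were not called. The slides are a batch that crosses the groups, with replicates 1 and 2 of every group on slide 1 and replicate 3 on slide 2. Within slide 1 the GR24 difference was 0.44 and within slide 2 it was 0.41, whereas the pinosylvin difference was 0.070 and 0.39. A further *Hif1a* probe gave a log2 fold change of 0.65 with GR24 that narrowly missed the threshold (95% interval 0.077 to 1.22, adjusted p = 0.0523), with 0.91 within slide 1 and 0.12 within slide 2.

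*Epas1*, which encodes the related factor found first in endothelial cells, was at the background of these arrays. Its probe was well above background on 1 of 12 arrays, control replicate 3, and it was not tested. *Egln3*, a prolyl hydroxylase that is itself induced in hypoxia, was also close to background. Its level was -4.56, -4.96 and -4.11 in the control, -4.71, -4.94 and -4.19 with GR24, -4.28, -4.54 and -4.39 with pinosylvin and -5.22, -5.40 and -4.36 with resveratrol. All 4 groups overlapped, and no change was called. Of its 2 spots, 0 were well above background on control replicate 2 and on resveratrol replicates 1 and 2, and 1 of 2 on GR24 replicates 1 and 2 and on pinosylvin replicate 2. All 3 comparisons with the control thus rest partly on background, and no bound is read from them.

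*Vegfa* encodes vascular endothelial growth factor A, the main secreted signal for the growth of blood vessels. The level of its representing probe was 1.23, 1.42 and 1.40 in the control and 1.45, 1.36 and 1.49 with GR24. It was 2.14, 2.16 and 2.20 with pinosylvin and 1.96, 1.91 and 2.00 with resveratrol. By this probe the GR24 arrays overlapped the control arrays, and the resveratrol and pinosylvin arrays lay above both with no overlap between them. It rose 1.76-fold with pinosylvin (log2 fold change 0.82, 95% interval 0.67 to 0.97, adjusted p = 2.07e-05) and 1.52-fold with resveratrol (log2 fold change 0.60, 95% interval 0.45 to 0.75, adjusted p = 0.000218). With GR24 the difference was 0.081 (95% interval -0.069 to 0.23, adjusted p = 0.340). Within slides 1 and 2 the differences were 0.82 and 0.80 with pinosylvin, 0.61 and 0.60 with resveratrol, and 0.077 and 0.090 with GR24.

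The 3 probes of *Vegfa* disagreed on GR24. The second probe gave -1.23, -0.78 and -1.01 in the control, -0.089, -0.37 and -0.13 with GR24, 0.11, 0.068 and 0.042 with pinosylvin and -0.35, -0.51 and -0.39 with resveratrol. The third probe gave -3.40, -3.41 and -3.62, then -2.46, -2.78 and -2.49, then -2.27, -2.31 and -2.26 and then -2.77, -3.05 and -2.80 in the same order of groups. By both of these probes all GR24 arrays were above all control arrays, below all pinosylvin arrays and overlapping the resveratrol arrays. With GR24 they rose by a log2 fold change of 0.81 (95% interval 0.55 to 1.06, adjusted p = 0.000139) and 0.90 (95% interval 0.67 to 1.14, adjusted p = 3.81e-05). With pinosylvin they rose by 1.08 and 1.20 and with resveratrol by 0.59 and 0.61, with adjusted p-values of 0.000123, 3.55e-05, 0.00563 and 0.00331. The representing probe and the third probe are assigned to the same RefSeq transcript record and the second to another, and which transcripts each measured was not tested. When the tested probes of a gene were averaged, *Vegfa* rose by 0.60 with GR24 (adjusted p = 0.000137). A rise of *Vegfa* with pinosylvin and resveratrol was thus seen by all 3 probes, and a rise with GR24 by 2 of 3.

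**Figure D2:**
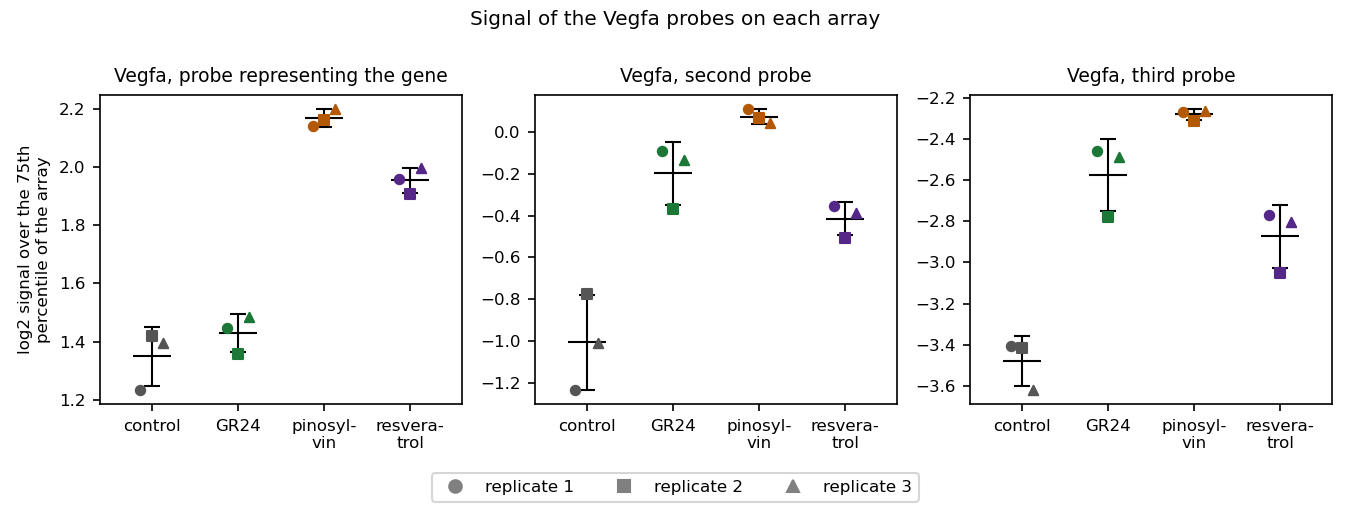
Level of the 3 *Vegfa* probes on each of the 12 arrays, as log2 signal over the 75th percentile of the array (vertical axis, with its own range in each panel) by treatment group (horizontal axis). Symbols are arrays by replicate, and the bars are the mean and SD of 3 arrays. The GR24 arrays overlap the control arrays by the representing probe and lie above them by the second probe and the third probe.

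*Adm* encodes adrenomedullin, a secreted peptide that widens blood vessels and is induced in hypoxia. Its level was 1.19, 1.31 and 1.15 in the control, 2.30, 2.34 and 2.21 with GR24, 2.15, 2.10 and 2.03 with pinosylvin and 2.85, 2.72 and 2.77 with resveratrol. The 4 groups did not overlap, with resveratrol highest, then GR24, then pinosylvin, and the control lowest. It rose 2.95-fold with resveratrol (log2 fold change 1.56, 95% interval 1.41 to 1.71, adjusted p = 7.69e-07). With GR24 it rose 2.09-fold (log2 fold change 1.06, 95% interval 0.91 to 1.22, adjusted p = 3.93e-07) and with pinosylvin 1.83-fold (log2 fold change 0.87, 95% interval 0.72 to 1.02, adjusted p = 1.44e-05). *Adm* was the only one of the 8 tested genes called with every compound by its representing probe. Within slides 1 and 2 its difference was 1.54 and 1.61 with resveratrol, 1.07 and 1.06 with GR24, and 0.87 and 0.88 with pinosylvin.

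*Bnip3* and *Pdk1* act on mitochondria, the former as a receptor for their removal by autophagy and the latter as a kinase that inhibits pyruvate dehydrogenase. The level of *Bnip3* was 4.10, 4.13 and 3.88 in the control, 4.48, 4.43 and 4.35 with GR24, 4.06, 4.09 and 4.15 with pinosylvin and 4.21, 3.96 and 4.06 with resveratrol. The 3 GR24 arrays were above the other 9, which overlapped. *Bnip3* rose 1.31-fold with GR24 (log2 fold change 0.38, 95% interval 0.19 to 0.58, adjusted p = 0.00306; 0.34 within slide 1 and 0.47 within slide 2). A further probe gave 0.48 (adjusted p = 0.000587). The differences of 0.059 with pinosylvin (95% interval -0.13 to 0.25) and 0.038 with resveratrol (95% interval -0.15 to 0.23) were not called.

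The level of the representing *Pdk1* probe was 1.41, 1.32 and 1.29 in the control, 1.16, 1.13 and 1.23 with GR24, 1.37, 1.34 and 1.52 with pinosylvin and 1.49, 1.34 and 1.39 with resveratrol. All GR24 arrays were below the other 9, yet the difference from the control was small, -0.17 (95% interval -0.33 to -0.0087), and was not called (adjusted p = 0.0686). It was called with the replicate number as a block (adjusted p = 0.0399) and with the slide as one (adjusted p = 0.0445), and the difference within slides 1 and 2 was -0.22 and -0.061. Of the other 3 *Pdk1* probes, 1 fell with GR24 (-0.33, adjusted p = 0.0447) and another rose with pinosylvin (0.22, adjusted p = 0.0282). Across the 4 *Pdk1* probes the log2 fold change with GR24 ran from -0.33 to 0.016, and 0 were called higher.

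*Ankrd37*, a small ankyrin repeat protein and a known target of Hif1a, had the highest fold change of the 8 genes with GR24. Its level was -1.70, -1.61 and -1.77 in the control, -0.18, -0.12 and -0.30 with GR24, -1.01, -1.05 and -1.01 with pinosylvin and -1.71, -1.60 and -1.83 with resveratrol. The GR24 arrays were above all pinosylvin arrays, these were above all control arrays, and the resveratrol and control arrays overlapped. *Ankrd37* rose 2.81-fold with GR24 (log2 fold change 1.49, 95% interval 1.32 to 1.67, adjusted p = 8.65e-08) and 1.59-fold with pinosylvin (log2 fold change 0.67, 95% interval 0.49 to 0.84, adjusted p = 0.000246). With resveratrol the difference was -0.021, with an interval of -0.20 to 0.15 (adjusted p = 0.919). The slide as a block gave GR24 an adjusted p of 2.27e-08, and within slides 1 and 2 the difference with pinosylvin was 0.62 and 0.76.

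*Kdm3a* encodes a histone demethylase that removes methyl groups from lysine 9 of histone H3 and is induced in hypoxia. Its level was -0.16, -0.28 and -0.20 in the control, 0.58, 0.68 and 0.38 with GR24, 0.11, -0.056 and -0.16 with pinosylvin and -0.014, 0.17 and -0.067 with resveratrol. The GR24 arrays were above the other 9, pinosylvin and resveratrol overlapped each other, and both lay above the control, pinosylvin by a narrow margin. *Kdm3a* rose 1.70-fold with GR24 (log2 fold change 0.76, 95% interval 0.54 to 0.99, adjusted p = 8.41e-05; 0.85 within slide 1 and 0.59 within slide 2). The differences of 0.18 with pinosylvin (95% interval -0.045 to 0.40) and 0.24 with resveratrol (95% interval 0.017 to 0.47) were not called, though the latter was called when the slide was a block (adjusted p = 0.0490).

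The compounds were also compared with each other at the same dose and time, in 3 pairs whose p-values were adjusted over all tested probes of each pair. Between GR24 and pinosylvin 7 of the 8 genes differed, 5 higher and 2 lower with GR24, where 29.6% of all tested probes were higher and 26.8% lower. *Ankrd37* (0.82, adjusted p = 8.42e-06), *Kdm3a* (0.58, adjusted p = 0.000596) and *Bnip3* (0.32, adjusted p = 0.00837) were higher with GR24. The representing probe of *Vegfa* was lower with GR24 (-0.74, adjusted p = 6.42e-06), where the second probe and the third probe gave -0.27 and -0.30 (adjusted p = 0.0661 and 0.0371). The remaining calls were small. *Hif1a* was higher by 0.25 (adjusted p = 0.0190), with 0.37 within slide 1 and 0.027 within slide 2. *Adm* was higher by 0.19 (adjusted p = 0.0349) and *Pdk1* differed by -0.24 (adjusted p = 0.0158). These 3 calls were lost without GR24 replicate 2, at adjusted p-values of 0.0620, 0.112 and 0.0541. Other single arrays ended them too. The call of *Hif1a* was lost without GR24 replicate 1 or pinosylvin replicate 2 (adjusted p = 0.0732 and 0.0798). That of *Adm* was lost without GR24 replicate 1, pinosylvin replicate 2 or pinosylvin replicate 3 (adjusted p = 0.0920, 0.0748 and 0.108). That of *Pdk1* was lost without pinosylvin replicate 3 (adjusted p = 0.0613). Of the other 3 *Pdk1* probes, 2 were called lower with GR24 than with pinosylvin (-0.69 and -0.34, adjusted p = 0.000923 and 0.000649).

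Between GR24 and resveratrol 7 of the 8 genes differed, 4 higher and 3 lower with GR24, where 27.4% of all tested probes were higher and 23.9% lower. *Ankrd37* (1.51, adjusted p = 1.39e-07), *Kdm3a* (0.52, adjusted p = 0.00140), *Bnip3* (0.35, adjusted p = 0.00653) and *Hif1a* (0.30, adjusted p = 0.00965) were higher with GR24. The call of *Hif1a* was lost when its probes were averaged (0.27, adjusted p = 0.162). Its second probe was not called (0.25, adjusted p = 0.457), with 0.44 within slide 1 and -0.12 within slide 2. *Adm* was lower with GR24 (-0.50, adjusted p = 0.000139), and so was *Pdk1* (-0.23, adjusted p = 0.0196). The call of *Pdk1* was lost under several scalings of the arrays and with no filter on dim probes (adjusted p = 0.0713 in the latter). It was also lost without GR24 replicate 1, GR24 replicate 2 or resveratrol replicate 1 (adjusted p = 0.0586, 0.0646 and 0.0757). The other *Pdk1* probes gave 2 further calls in the same direction (-0.65 and -0.16, adjusted p = 0.00152 and 0.0472). *Vegfa* was lower by its representing probe (-0.52, adjusted p = 9.2e-05) but not by the second (0.22, adjusted p = 0.143), and it was higher by the third probe (0.30, adjusted p = 0.0393), so its order between these compounds depends on the probe.

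Between the stilbenes pinosylvin and resveratrol, which differ by the hydroxyl group, 2 of the 8 genes differed, 1 higher and 1 lower with pinosylvin, where 7.68% of all tested probes were higher and 6.85% lower. *Ankrd37* was higher with pinosylvin by 0.69 (95% interval 0.52 to 0.86, adjusted p = 0.000314), and *Adm* was higher with resveratrol, a difference of -0.69 (95% interval -0.84 to -0.54, adjusted p = 0.000137). The representing probe of *Vegfa* differed by 0.21 (95% interval 0.063 to 0.36, adjusted p = 0.0630), which was called with the replicate block (adjusted p = 0.0288), and the other 2 probes were higher with pinosylvin by 0.49 and 0.59 (adjusted p = 0.0180 and 0.00464). *Egln3* was not called here, but was with the replicate block (adjusted p = 0.0327) and with the slide as a block (adjusted p = 0.0436). Since 2 of its 3 resveratrol arrays were not above background, no difference is read from it. The intervals of the difference were -0.13 to 0.22 for *Hif1a*, -0.17 to 0.21 for *Bnip3*, -0.15 to 0.17 for *Pdk1* and -0.29 to 0.16 for *Kdm3a*.

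Of the other genes that set the activity of the factors, 13 of 15 had a tested probe and *Cul2* and *Ep300* had none. With GR24 4 of the 13 rose and 0 fell, where 31.5% of all tested probes rose and 25.5% fell, so the number of rises was close to the share of all probes. With pinosylvin and resveratrol 0 were called by limma, where 8.28% and 7.99% of all tested probes rose and 8.27% and 8.99% fell. With the replicate block 6, 1 and 0 were called with GR24, pinosylvin and resveratrol, where 66.6%, 28.6% and 27.9% of all tested probes were, and 1 of the 6 was a fall, that of *Elob* (-0.22, adjusted p = 0.0165). The median log2 fold changes were 0.060, 0.092 and -0.011, close to those of all tested probes. *Arnt*, the partner of Hif1a on DNA, rose 2.12-fold with GR24 (log2 fold change 1.09, 95% interval 0.91 to 1.26, adjusted p = 1.11e-06), as did its second probe (0.94, adjusted p = 0.00204). The other 3 rose as well, *Hif1an*, the asparagine hydroxylase, by 0.71 (adjusted p = 0.00129), *Egln2*, a prolyl hydroxylase, by 0.35 (adjusted p = 0.0215), and *Rbx1*, of the ubiquitin ligase that holds Vhl, by 0.61 (adjusted p = 0.000334). Second probes did not all give the same call: that of *Rbx1* gave 0.25 (adjusted p = 0.0633), and those of *Arnt2*, a relative of *Arnt*, and *Eloc*, whose representing probes were not called, were lower with log2 fold changes of -1.21 and -0.88 (adjusted p = 4.05e-06 and 7.36e-06). That of *Crebbp*, a coactivator of the factors, was higher with GR24 (0.44, adjusted p = 0.00647) and pinosylvin (0.40, adjusted p = 0.0348), and that of *Arnt2* was also lower with resveratrol (-0.38, adjusted p = 0.0339). *Vhl* itself differed from the control by -0.10 with GR24 (95% interval -0.30 to 0.098, adjusted p = 0.370), 0.15 with pinosylvin and 0.036 with resveratrol.

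All 19 glycolysis genes known as targets of the factors were tested. With GR24 10 rose and 2 fell (median 0.27), with pinosylvin 2 rose and 3 fell (median -0.024), and with resveratrol 1 rose and 2 fell (median -0.037). Of all tested probes 31.5% rose and 25.5% fell with GR24, 8.28% and 8.27% with pinosylvin and 7.99% and 8.99% with resveratrol, and the resveratrol counts were close to these shares. With the replicate block the calls went from 12 to 14, from 5 to 7 and from 3 to 4, where the shares of all tested probes called rose to 66.6%, 28.6% and 27.9%, with *Gpi* and *Pfkl* added with GR24, *Pkm* and *Aldoa* with pinosylvin and *Eno1* with resveratrol. *Slc2a1*, the glucose transporter of basal uptake, rose 3.82-fold with GR24 (log2 fold change 1.93, 95% interval 1.65 to 2.22, adjusted p = 5.3e-07), and by 0.47 with pinosylvin (adjusted p = 0.0327) and 0.43 with resveratrol (adjusted p = 0.0455). *Hk2*, a hexokinase bound to mitochondria, rose by 1.07 with GR24 and 1.03 with pinosylvin (adjusted p = 2.92e-05 and 0.000278), with -0.024 for resveratrol (95% interval -0.30 to 0.25). *Hk1* rose by 0.93 with GR24, and *Pfkp*, a phosphofructokinase, rose by 0.85 with GR24 and had -0.40 with pinosylvin, a fall (adjusted p = 5.16e-05, 1.84e-05 and 0.0143). *Aldoc*, an aldolase, changed by -0.31, -0.92 and -0.50 with GR24, pinosylvin and resveratrol (adjusted p = 0.0102, 5.43e-05 and 0.00314). Under 6 other scalings or background corrections its change with GR24 ran from -0.31 to -0.046 and was called in 1 of 6, that with resveratrol ran from -0.51 to -0.19 and was called in 3 of 6, and that with pinosylvin ran from -0.94 to -0.36 and was called in all, so the sizes depend on the scaling. *Pdk3*, a sister kinase of *Pdk1*, fell with GR24 (-0.42, adjusted p = 0.00119), *Pfkfb3* had -0.21 with pinosylvin (adjusted p = 0.0431, called in 3 of the 6 scalings) and *Pkm* had -0.35 with resveratrol (adjusted p = 0.0133). Calls were also gained: *Pkm* with pinosylvin (-0.26, adjusted p = 0.0523) and *Pgk1* with GR24 (0.21, adjusted p = 0.0625) missed the threshold here and passed it in all 6 scalings. Other probes did not all give the same call. *Ldha* was higher with GR24 by its other probes (0.27 and 0.25, adjusted p = 0.00219 and 0.0126) but not by the representing one. Another *Eno1* probe was lower with resveratrol (-0.23, adjusted p = 0.0244). The other *Pkm* probes gave -0.44, -0.42 and -0.33 with resveratrol (adjusted p = 0.0149, 0.0540 and 0.0945). A second *Pfkfb3* probe gave -0.20 with GR24 and -0.11 with pinosylvin (adjusted p = 0.491 and 0.824).

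Of 29 other target genes of the factors, 21 were tested, *Car12*, *Epo*, *Tf* and *Kdm4c* were not well above background on all 3 arrays of any group, and *Lox*, *Bhlhe41*, *Fam162a* and *Rora* had no probe found by accession. With GR24 12 rose and 7 fell (median 0.50), with pinosylvin 1 rose and 2 fell (median 0.10), and with resveratrol 4 rose and 1 fell (median 0.11). The shares of all tested probes were 31.5% and 25.5%, 8.28% and 8.27%, and 7.99% and 8.99%. With the replicate block, under which 28.6% and 27.9% of all tested probes were called with pinosylvin and resveratrol, the calls went from 3 to 8 and from 5 to 8. *Ero1a*, an oxidase of the endoplasmic reticulum, rose 2.91-fold with GR24 (log2 fold change 1.54, 95% interval 1.35 to 1.73, adjusted p = 1.42e-07), followed by *Angptl4* (2.83-fold) and, as log2 fold changes, *Insig2* (1.10) and *Bhlhe40* (1.07), with adjusted p-values of 3.37e-06, 6.75e-07 and 5.37e-06. *Edn1*, the vessel-constricting peptide endothelin, fell with GR24 (-1.59, adjusted p = 1.16e-06) and rose with resveratrol (0.84, adjusted p = 0.000843). *Stc2* fell with all 3 compounds (-1.01, -0.54 and -0.42, adjusted p = 3.3e-05, 0.0103 and 0.0340). *Car9*, a carbonic anhydrase widely used as a marker of hypoxia, fell with GR24 (-0.80, adjusted p = 2.01e-05), and *Higd1a* fell too (-0.49, adjusted p = 9.79e-05). With pinosylvin *Bnip3l*, a relative of *Bnip3*, rose by 0.34 and *Ndrg1* had -0.50, a fall (adjusted p = 0.0161 and 0.000226). With resveratrol *Bhlhe40*, *Mxi1* and *Ddit4* rose by 0.57, 0.35 and 0.29 (adjusted p = 0.00282, 0.00333 and 0.00795). With GR24 these targets moved both ways, with a median of 0.50 where that of all tested probes was 0.027.

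Of 13 genes of the VEGF family, its receptors and the angiopoietins, 8 were tested. With GR24 1 rose and 2 fell (median -0.15), with pinosylvin 3 rose and 0 fell (median 0.24), and with resveratrol 2 rose and 0 fell (median 0.12). With the replicate block 4, 5 and 2 were called, where 66.6%, 28.6% and 27.9% of all tested probes were. Without it, beside the 31.5% of all tested probes that rose and the 25.5% that fell, the GR24 counts do not stand out, and the shares were 8.28% and 8.27% with pinosylvin and 7.99% and 8.99% with resveratrol. *Pgf*, placental growth factor, rose with every compound, by 1.27 with GR24, 0.98 with pinosylvin and 1.10 with resveratrol (adjusted p = 2.8e-05, 0.00107 and 0.000553). *Nrp1*, a co-receptor, fell with GR24 (-1.72, adjusted p = 8.76e-05). *Angpt1*, an angiopoietin that stabilises vessels, fell with GR24 (-1.55, adjusted p = 2.22e-08) and rose with pinosylvin (0.66, adjusted p = 9.26e-05). *Nrp2* rose with pinosylvin (0.47, adjusted p = 0.00456) and *Vegfc* with resveratrol (0.35, adjusted p = 0.0146). Probes that did not represent their gene gave further calls. A second *Vegfb* probe was higher with GR24 (0.28, adjusted p = 0.0274) and lower with resveratrol (-0.43, adjusted p = 0.0113), while the representing probe was not called. A second *Nrp2* probe was lower with GR24 (-0.39, adjusted p = 0.0263) and higher with pinosylvin (0.47, adjusted p = 0.0358). The receptors *Flt1* and *Kdr*, with *Vegfd*, *Angpt2* and *Tie1*, were not well above background on all 3 arrays of any group.

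Around adrenomedullin, 2 of 5 genes were tested, and *Calcrl*, its receptor, *Ramp3* and *Adm2* were not well above background on all 3 arrays of any group. *Ramp1*, a partner protein of that receptor, fell with GR24 (-1.68, adjusted p = 1.28e-08), pinosylvin (-0.30, adjusted p = 0.0116) and resveratrol (-0.48, adjusted p = 0.000900). Of all tested probes 25.5%, 8.27% and 8.99% fell with these compounds. A link between *Ramp1* and the rise of *Adm* was not tested. *Ramp2*, the partner that makes the receptor bind adrenomedullin, fell with GR24 (-0.75, adjusted p = 0.000814), with -0.15 for pinosylvin (95% interval -0.45 to 0.16) and -0.24 for resveratrol (95% interval -0.54 to 0.065). Among the called genes of all 5 lists, each change had the same sign within slide 1 and within slide 2. Of 20 list genes with several tested probes, the probes of 8 differed in their call with GR24, of 4 with pinosylvin and of 6 with resveratrol, and for 0 of them were 2 probes called in opposite directions.

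**Figure D3:**
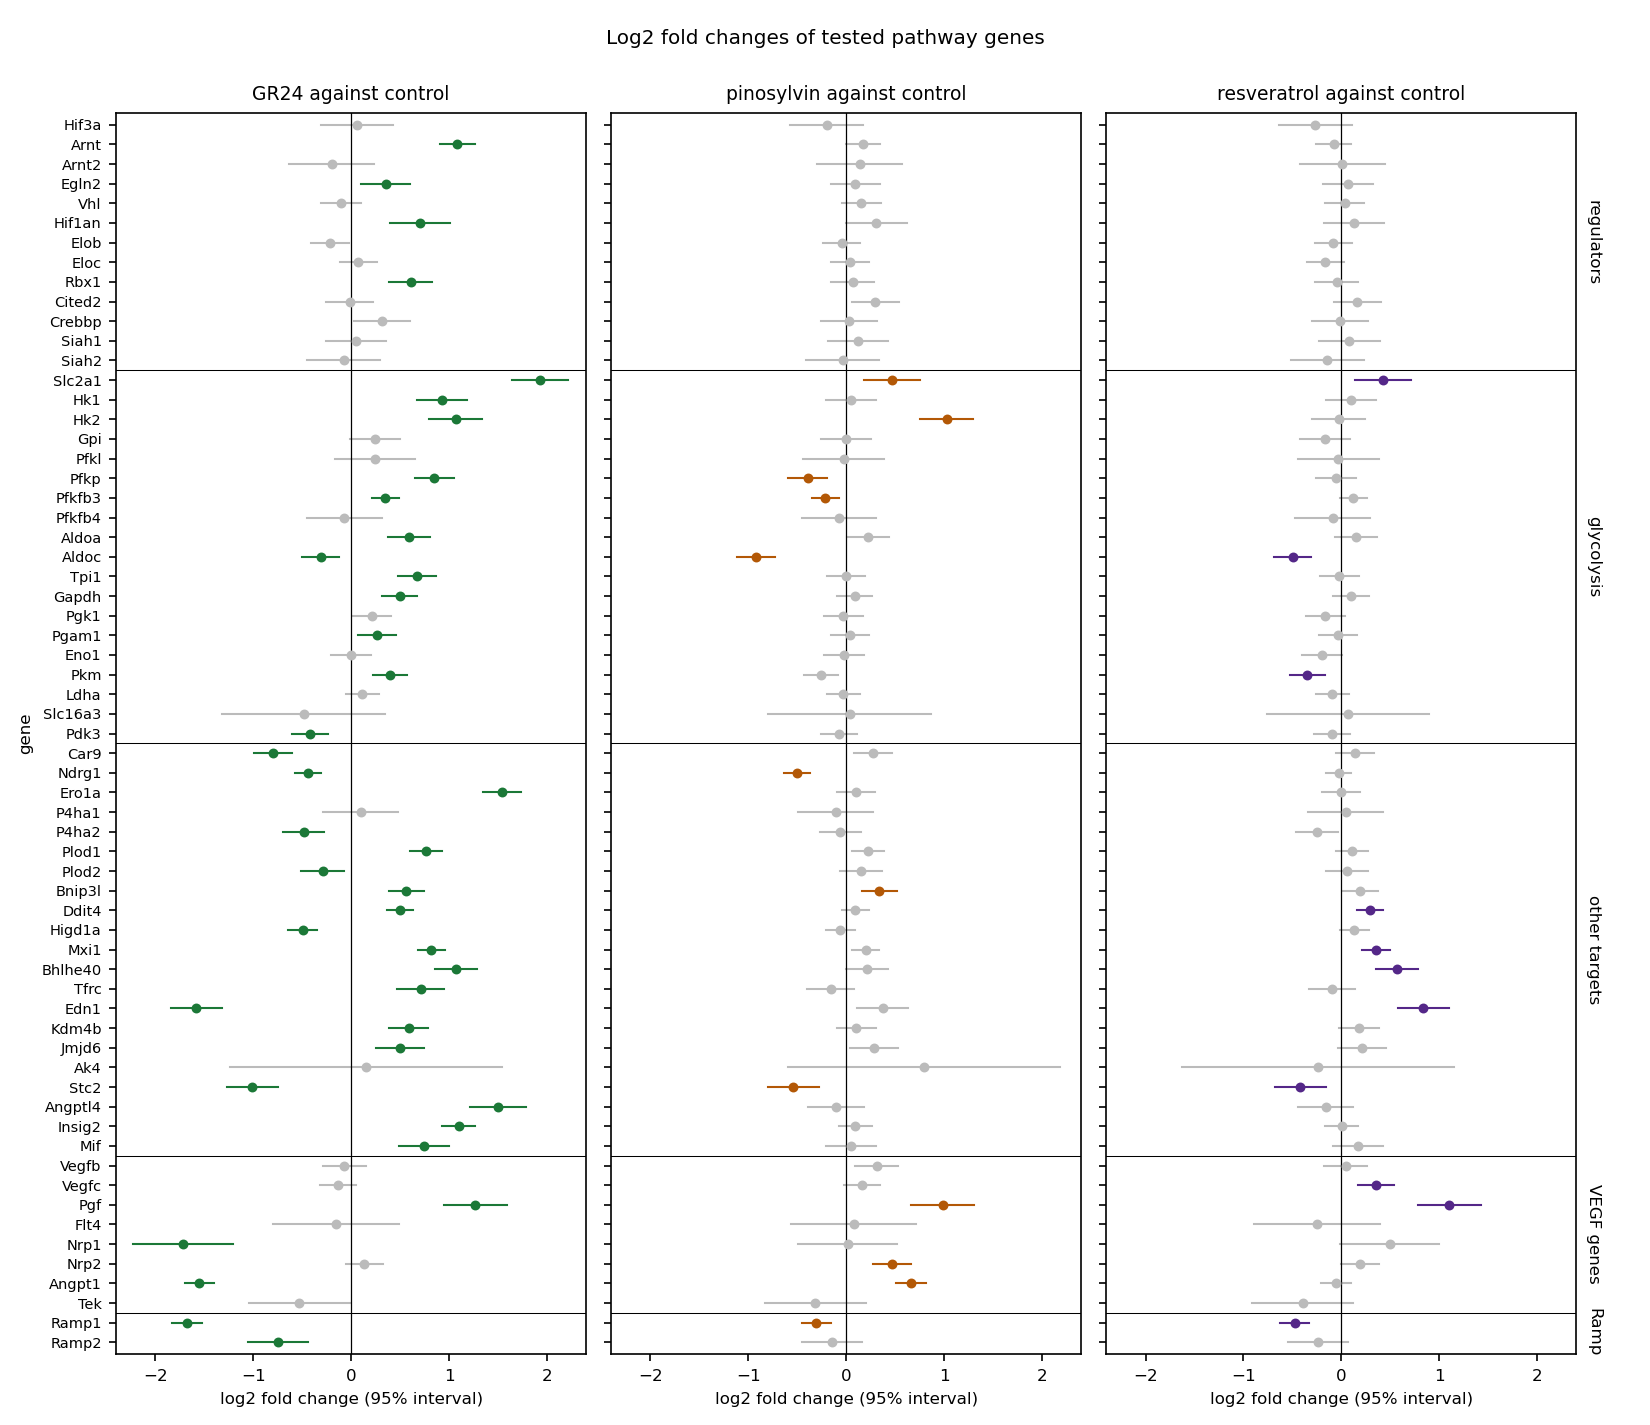
Log2 fold change against the control (horizontal axis) of each tested gene of the 5 lists (vertical axis), in 1 panel per compound. Points are estimates of limma, lines are 95% intervals, coloured genes passed the adjusted threshold and grey ones did not. With GR24 rises and falls stand side by side in the target lists, from *Slc2a1* at 1.93 to *Edn1* at -1.59, and fewer genes are coloured with pinosylvin and resveratrol.

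Over the 12 arrays, 10740 other named genes were ranked by Pearson's r with the representing probe of *Vegfa* or of *Hif1a*. The r values are descriptions over arrays that share 4 treatments and 2 slides. The patterns most like *Vegfa* were those of *Scara5* (r = 0.989), *Pck2* (0.956), *Atf5* (0.954), *Cdc42ep2* (0.954) and *Cp* (0.949). This ranking holds for the representing probe alone. That probe had r of 0.683 with the second *Vegfa* probe and 0.643 with the third, and these 2 had 0.964 with each other. *Atf5* had log2 fold changes of 0.016 with GR24, 1.10 with pinosylvin and 1.01 with resveratrol, and *Pck2* had 0.13, 1.08 and 0.82. The patterns most like *Hif1a* were those of *Otud6b* (0.976), *Tmem199* (0.963), *Impact* (0.960), *Supt4h1* (0.959) and *Gnl3* (0.955). *Otud6b* had 0.65, 0.23 and 0.22 with GR24, pinosylvin and resveratrol. The order of the groups in these genes follows from how they were picked.

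The cells carried the markers of skeletal muscle: 7 of 8 markers had a probe, and all 7 were well above background on all 12 arrays. With GR24 6 of the 7 fell, where 25.5% of all tested probes did, among them *Myog* (-5.83, adjusted p = 5.53e-10), *Acta1* (-3.88, adjusted p = 2.4e-10), *Actc1* (-2.90, adjusted p = 9.55e-10) and *Ckm* (-2.58, adjusted p = 9.64e-08), while *Des* differed by -0.089 (adjusted p = 0.566). The summed signal of the 7, in units of the 75th percentile, was 628 to 727 in the control, 271 to 286 with GR24, 724 to 776 with pinosylvin and 528 to 557 with resveratrol, and as *Myh3* makes up most of it, it does not show the larger falls of *Myog* and *Acta1*. With resveratrol 4 of the 7 fell, where 8.99% of all tested probes did, *Ckm* (-1.04, adjusted p = 0.000597), *Actc1* (-0.80, adjusted p = 9.74e-05), *Myog* (-0.51, adjusted p = 0.0375) and *Myh3* (-0.30, adjusted p = 0.0169). With pinosylvin 2 rose, where 8.28% of all tested probes did, *Myog* (0.73, adjusted p = 0.00654) and *Tnnt3* (0.54, adjusted p = 0.000919). The changes of *Hif1a*, *Vegfa*, *Adm* and the other genes with each compound stand beside these changes, whose part in them was not tested, and in bulk RNA fewer cells of a type and less RNA per cell cannot be told apart. Of 5 endothelial markers, *Tie1* was well above background on 0 of 12 arrays, *Pecam1* and *Kdr* were not on all 3 arrays of any group, and *Cdh5* and *Vwf* were on all 12, with no change called in limma. *Pecam1* was well above background on 0 of 3 control, 2 of 3 GR24, 2 of 3 pinosylvin and 1 of 3 resveratrol arrays. The endothelial sum was 4.46 to 5.19 in the control, 4.46 to 5.73 with GR24, 4.59 to 5.10 with pinosylvin and 4.25 to 5.44 with resveratrol, and as *Vwf* makes up most of it, it says little of the other markers. Of 4 macrophage markers *Ptprc* was well above background on 0 of 12 arrays, and *Cd68* rose with GR24 (2.67, adjusted p = 4.11e-07) while *Csf1r* did not (-0.032, adjusted p = 0.954) and *Adgre1* was not tested. The rise of the macrophage sum rests on *Cd68* alone: it was 0.168 to 0.300 in the control and 0.749 to 0.805 with GR24, against 0.219 to 0.305 with pinosylvin and 0.190 to 0.265 with resveratrol. The 4 fibroblast markers were well above background on all 12 arrays, and their sum was 114 to 122 in the control, 65.5 to 70.6 with GR24, 87.4 to 99.9 with pinosylvin and 85.4 to 95.2 with resveratrol. The sum does not speak for each marker, as *Col1a1* fell with all 3 compounds while *Pdgfra* rose by 0.23, 0.43 and 0.35 with GR24, pinosylvin and resveratrol (adjusted p = 0.0182, 0.00208 and 0.00678). *Thy1* fell with GR24 and pinosylvin (-0.90 and -0.63, adjusted p = 3.55e-06 and 0.000338) and was not called with resveratrol (adjusted p = 0.471). *Dcn* fell with GR24 (-0.29, adjusted p = 0.0332) and was not called with pinosylvin or resveratrol (adjusted p = 0.479 and 0.106). Every fibroblast marker but *Pdgfra* thus fell with GR24, where 25.5% of all tested probes did.

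The promoters of the 10 genes were searched on both strands for the core of the hypoxia response element, ACGTG or GCGTG, and for the core of the antioxidant response element, TGACNNNGC, in the 250 bases before the start of transcription (RefSeq, assembly GRCr8). All 10 genes had an entry, and *Vegfa* and *Kdm3a* had 2 each, which makes 12. The hypoxia core was in 6 of the 12 entries (*Hif1a*, *Egln1*, *Bnip3*, *Pdk1*, *Ankrd37* and 1 entry of *Kdm3a*) and in 36.7% of 33469 promoters of the same length, and ACGTG alone was in 3 of the 12 and 16.6% of all. The antioxidant core was in 0 of the 12 and 10.1% of all. Within CACGTG the motif reads on both strands and was counted on each. The windows of 3 genes that rose with GR24 are shown because they differ in these letters, with matches to the hypoxia core in capitals. That of *Ankrd37* (chr16:53001257-53001506, plus strand) held 4 matches, that of *Bnip3* (chr1:203154963-203155212, minus strand) held 4 and that of *Adm* (chr1:174179950-174180199, plus strand) held 0.
Ankrd37: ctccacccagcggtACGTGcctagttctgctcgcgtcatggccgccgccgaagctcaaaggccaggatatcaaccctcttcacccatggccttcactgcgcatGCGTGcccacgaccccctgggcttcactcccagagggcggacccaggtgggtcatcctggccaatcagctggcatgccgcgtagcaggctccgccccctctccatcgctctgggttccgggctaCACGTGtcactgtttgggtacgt
Bnip3: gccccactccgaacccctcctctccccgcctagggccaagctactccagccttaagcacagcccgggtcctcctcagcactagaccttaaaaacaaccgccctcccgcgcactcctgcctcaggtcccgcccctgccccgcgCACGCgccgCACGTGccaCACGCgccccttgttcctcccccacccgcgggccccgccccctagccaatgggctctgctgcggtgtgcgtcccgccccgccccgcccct
Adm: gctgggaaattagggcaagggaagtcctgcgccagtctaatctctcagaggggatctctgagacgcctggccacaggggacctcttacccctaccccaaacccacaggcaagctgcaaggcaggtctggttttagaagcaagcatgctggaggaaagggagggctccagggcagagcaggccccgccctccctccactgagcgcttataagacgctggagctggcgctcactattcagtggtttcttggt
A match is a run of letters in this window and not a measured site, and no binding was measured.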

How the data were processed

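The authors deposited, for each array, the output of Agilent Feature Extraction 12.0.0.7, in which the processed signal is a background-subtracted intensity not normalized between arrays. A table of log2 values for 25848 probes was deposited by the authors too and served as an alternative, and its columns correlated at 0.9994 to 0.9997 with the log2 median signal of their own arrays and had medians of 9.21 to 9.24. How that table was normalized is not stated. The submitters' notes and the study's methods name limma.

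The 75th percentile of all 45598 probes of an array, as log2, was taken from the log2 of each processed signal. Control spots were left out, spots marked as outliers were set to missing, and spots of a probe were averaged. No spot was saturated. A probe counted as well above background when at least 0.5 of its spots carried that mark, a rule not fixed beforehand. Of several such rules for probes with several spots it was taken because it gave the number of tested probes of earlier results of these data, and *Egln3* would not be tested under a stricter one. A probe was tested if this held on all 3 arrays of a group. limma 3.58.1 in R 4.3.3 fitted a mean per group to all 12 arrays, with eBayes and Benjamini-Hochberg adjustment over the 24279 tested probes at 0.05, and the steps were tested on simulated data.

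Names came from a GRCr8 gene table by RefSeq accession, version ignored, which named 21109 probes (46.3%). The background correction of the normexp alternative used median signals. The 10 genes, the lists and the alternatives were chosen with earlier results of these data known. Named were all 10 genes, up to 4 genes of each list with the largest called change each way per compound, *Vhl*, *Hif1an*, *Egln2* and *Arnt* always, and the 5 genes most like *Vegfa* and *Hif1a*. Markers named are examples of their lists. The HIF pathway regulators were *Hif3a*, *Arnt*, *Arnt2*, *Egln2*, *Vhl*, *Hif1an*, *Elob*, *Eloc*, *Cul2*, *Rbx1*, *Cited2*, *Ep300*, *Crebbp*, *Siah1* and *Siah2*. The HIF target genes of glycolysis were *Slc2a1*, *Hk1*, *Hk2*, *Gpi*, *Pfkl*, *Pfkp*, *Pfkfb3*, *Pfkfb4*, *Aldoa*, *Aldoc*, *Tpi1*, *Gapdh*, *Pgk1*, *Pgam1*, *Eno1*, *Pkm*, *Ldha*, *Slc16a3* and *Pdk3*. The other HIF target genes were *Car9*, *Car12*, *Ndrg1*, *Ero1a*, *P4ha1*, *P4ha2*, *Plod1*, *Plod2*, *Lox*, *Bnip3l*, *Ddit4*, *Higd1a*, *Mxi1*, *Bhlhe40*, *Bhlhe41*, *Epo*, *Tf*, *Tfrc*, *Edn1*, *Kdm4b*, *Kdm4c*, *Jmjd6*, *Ak4*, *Stc2*, *Angptl4*, *Insig2*, *Mif*, *Fam162a* and *Rora*, and 1 further gene of this list is not reported here and not counted. The VEGF family and receptor genes were *Vegfb*, *Vegfc*, *Vegfd*, *Pgf*, *Flt1*, *Kdr*, *Flt4*, *Nrp1*, *Nrp2*, *Angpt1*, *Angpt2*, *Tek* and *Tie1*. The adrenomedullin genes were *Calcrl*, *Ramp1*, *Ramp2*, *Ramp3* and *Adm2*. Markers of skeletal muscle were *Myog*, *Ckm*, *Acta1*, *Actc1*, *Des*, *Mylpf*, *Tnnt3* and *Myh3*. Markers of endothelial cells were *Pecam1*, *Cdh5*, *Tie1*, *Vwf* and *Kdr*. Markers of fibroblasts were *Pdgfra*, *Dcn*, *Col1a1* and *Thy1*. Markers of macrophages were *Cd68*, *Csf1r*, *Adgre1* and *Ptprc*. Only the 250 bases before the start were searched.

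The replicates are independent experiments on 1 batch of cells, per the series record. Deviations of arrays with the same replicate number from their group means correlated at 0.19 to 0.74 in all 18 pairs, so the numbers pair the arrays, and a fit with that block is given beside the main one. The differentiation time in the methods is not the 6 days of the labels. The number of arrays limits the precision.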

Additional observations from a re-analysis of the deposited data

How the results depend on the processing

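Of 48 log2 fold changes (8 genes, 6 comparisons) 26 were called. Under other normalizations, background corrections, filters, blocks and fits, and without each array in turn, 20 of the 26 stayed called with the same sign under every alternative, and 0 called changes reversed. The other 6 were *Hif1a*, *Adm* and *Pdk1* between GR24 and pinosylvin and *Hif1a*, *Vegfa* and *Pdk1* between GR24 and resveratrol. Without each array in turn, the number of genes called stayed at 5 of 8 with GR24, 3 with pinosylvin, 2 with resveratrol and 2 between pinosylvin and resveratrol, and ran from 4 to 7 between GR24 and pinosylvin (4 without GR24 replicate 2) and from 6 to 7 between GR24 and resveratrol. Over all tested probes, the higher and lower calls with GR24 went from 7658 and 6196 to 7140 and 5718 without control replicate 1. Those with pinosylvin went from 2010 and 2009 to 1409 and 1530, and those with resveratrol from 1941 and 2182 to 1326 and 1546. Between GR24 and pinosylvin the calls went from 7193 and 6498 to 6338 and 5953 without GR24 replicate 2. With no filter on dim probes, more probes share the adjustment. The count of the 8 genes between GR24 and pinosylvin was then 4 in place of 7, and the calls over all probes were 6483 higher and 5859 lower. With the replicate block the count between pinosylvin and resveratrol was 4 in place of 2, as it was with the slide as a block. Added were *Vegfa* and *Egln3*, whose resveratrol arrays were mostly not above background. *Pdk1* was added with GR24, where the count was 6. Under the replicate block 26.0% of all tested probes were called between pinosylvin and resveratrol, and 66.6% with GR24. The replicate block changed no other call of the 8 genes. The slide as a block also added *Kdm3a* with resveratrol (3 in place of 2). Averaging the probes of a gene added *Vegfa* with GR24, *Pdk1* with pinosylvin and *Vegfa* between pinosylvin and resveratrol, the last of which eBayes with trend and robust settings also called. The same averaging ended the calls of *Hif1a* (0.27, adjusted p = 0.162) and *Vegfa* (-0.0029, adjusted p = 0.983) between GR24 and resveratrol. Over all probes, calls with pinosylvin went from 4019 to 6947 with the replicate block, 7074 with the slide block, 2409 with no filter and 2479 with only the 6 arrays compared. Calls with resveratrol went from 4123 to 6769, 6869 and, with no filter, 2680. Calls between pinosylvin and resveratrol went from 3528 to 6323, 6443 and, with no filter, 1975, and to 2148, 2237 and 2311 without pinosylvin replicate 2, resveratrol replicate 2 and resveratrol replicate 3. Among alternatives chosen after seeing the data, the series table with the slide block called 6549, 6621 and 5858 in these 3 comparisons, and it added *Hif1a* with pinosylvin, *Vegfa* with GR24, *Egln3* between GR24 and resveratrol and *Vegfa* between pinosylvin and resveratrol. The same alternative ended the call of *Pdk1* between GR24 and resveratrol (-0.12, adjusted p = 0.124). Slide 1 alone, also chosen later, added *Pdk1* with GR24 and *Egln3* between pinosylvin and resveratrol, and it ended the call of *Adm* between GR24 and pinosylvin (0.20, adjusted p = 0.0648). The 75th percentile over all spots, also chosen later, moved the median of all probes between GR24 and resveratrol by 0.11, with 64.1% of calls higher in place of 53.4%, and ended both calls of *Pdk1*. The calls lost for lists with no filter were those of glycolysis (5 to 2 with pinosylvin, 3 to 1 with resveratrol) and VEGF genes (2 to 1 with resveratrol), and with probes kept only if above background on every array the other targets went from 3 to 6 with pinosylvin. The cause of these moves was not tested. *Epas1* and *Egln3* were limited by signal near background.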
